A study of Mus musculus with 4 samples.

Results

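The 10 genes described here store iron in the cell, bring it in, let it out, free it from heme or read its level: Fth1, Ftl1, Ncoa4, Tfrc, Slc11a2, Slc40a1, Aco1, Ireb2, Fbxl5 and Hmox1. They are 10 of the 26322 genes measured. They were chosen by gene symbol for their role in iron handling, at a time when the values of this comparison were already known, among them the lower level of Fth1. Their values are therefore a description, and their adjusted p-values say only where each gene stood in the fit across all genes. MC38, a mouse colon cancer line, was electroporated with Cas9 protein bound to a guide RNA, either a non-targeting guide (WT, 2 libraries) or 1 guide against Cbfb (CbfbKO, 2 libraries), and RNA was taken at least 1 week later. A further replicate of each group was not sequenced because of its RNA quality. Both groups had thus received Cas9 and a guide, and the sources used here do not say whether the CbfbKO cells were a clone or a pool. Cbfb encodes CBFβ, the partner protein of the RUNX transcription factors. The comparison was made to see which transcripts differ after CBFβ loss, which the study had linked to the response of tumour cells to tumour necrosis factor (TNF).

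Cells keep iron within narrow bounds because it is needed for respiration and DNA synthesis but is toxic when free. Iron enters with transferrin through the transferrin receptor, is stored inside the ferritin shell and leaves through ferroportin. When iron is scarce, the iron regulatory proteins IRP1 and IRP2 bind hairpins called iron-responsive elements (IREs) in the mRNAs of these proteins. An IRE near the start of an mRNA then blocks its translation, which is not seen in mRNA levels. IREs near the end protect the mRNA from decay, which acts on its level.

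The libraries were prepared from the 3′ end of mRNA and held between 3189035 and 3907936 reads on genes, so that 1 read was worth between 0.256 and 0.314 CPM, the read count scaled to a common library total. Cbfb had 295 and 285 reads in the WT libraries and 125 and 125 in the CbfbKO libraries, which matches the group names. Reads from the end of the mRNA do not show the edit itself. Of 10 colon epithelial marker genes, 4 had no read in any library, 0 had at least 10 reads in every library, and their summed level was between 1.57 and 1.80 CPM, so the labelled colorectal origin was not visible in these markers. Markers of macrophages, which express Slc40a1 and Hmox1 strongly, summed to between 6.90 and 10.9 CPM in WT and between 5.63 and 7.21 CPM in CbfbKO. Of the 10 macrophage genes, 5, among them Adgre1, Csf1r and Lyz2, had 0 reads in every library, and only Cd14 had at least 10 reads in each. Erythroid markers reached at most 2.51 CPM and T cell markers at most 1.18 CPM. Of 7 fibroblast genes, 4 had reads in every library, mostly Pdgfra and Dcn, while Lum and Thy1 had 0. They summed to between 66.6 and 72.1 CPM in WT and between 80.3 and 83.7 CPM in CbfbKO, and the part of this difference in the values below was not tested.

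IRE sequences are shown because they are the element that the iron regulatory proteins read, and 4 of the 10 genes held a match to the strict pattern used here. A search of the annotated untranslated regions (GENCODE M21, GRCm38, mRNA strand only) looked for an unpaired C, 5 bases, the loop CAGTGN and 5 bases that pair with the first 5, G-T pairs allowed. It found 7 matches, 1 each in the 5′ untranslated regions of Fth1, Ftl1 and Slc40a1 and 4 in the 3′ untranslated region of Tfrc. Each is given 5′ to 3′ as a window of 30 bases, with the 6 loop bases in capitals.
Fth1, chr19:9982731-9982760, plus strand: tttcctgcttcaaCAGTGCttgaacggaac
Ftl1, chr7:45459779-45459808, minus strand: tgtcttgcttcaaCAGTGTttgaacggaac
Slc40a1, chr1:45925465-45925494, minus strand: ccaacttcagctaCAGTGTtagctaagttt
Tfrc, chr16:32631218-32631247, plus strand: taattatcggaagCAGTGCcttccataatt
Tfrc, chr16:32631597-32631626, plus strand: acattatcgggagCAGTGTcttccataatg
Tfrc, chr16:32631662-32631691, plus strand: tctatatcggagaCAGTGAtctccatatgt
Tfrc, chr16:32631709-32631738, plus strand: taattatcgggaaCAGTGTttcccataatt
The windows of the ferritin genes Fth1 and Ftl1 were identical at 27 of 30 positions, and those of Fth1 and Slc40a1 at 13 of 30. Among 21875 protein-coding genes, 0.128% had such a match in a 5′ and 0.581% in a 3′ untranslated region. Slc11a2, Aco1, Ireb2, Fbxl5, Ncoa4 and Hmox1 had no match to these letters in their untranslated regions under this strict pairing. A match is a description of the sequence and does not show that an iron regulatory protein binds it in MC38 cells.

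**Figure D1:**
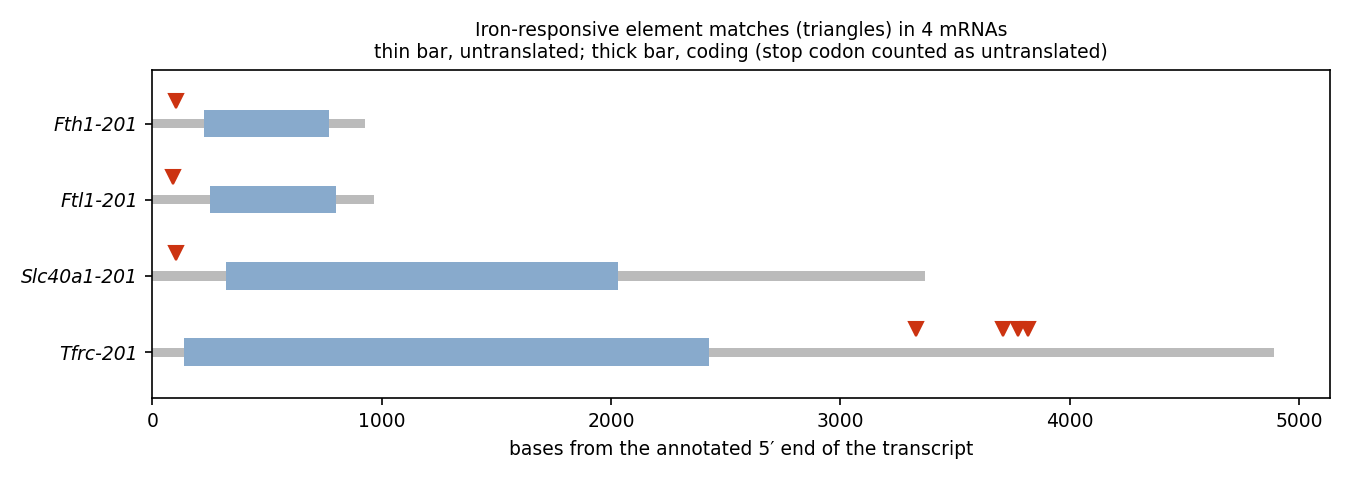
Map of 1 annotated transcript each of Fth1, Ftl1, Slc40a1 and Tfrc, drawn to scale in bases from the annotated 5′ end, with untranslated regions as thin bars, coding sequence as thick bars and IRE matches as triangles. The single matches of Fth1, Ftl1 and Slc40a1 lie before the coding sequence and the 4 of Tfrc lie after it.

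The 2 ferritin subunit genes did not move together. Fth1 (chromosome 19, 9980598 to 9985098, plus strand) encodes the heavy chain, which carries the ferroxidase activity that oxidises iron for storage. It had 8620 and 8384 reads in WT and 7393 and 5841 in CbfbKO. On the deposited log2 CPM scale this was 11.31 and 11.30 in WT against 10.89 and 10.84 in CbfbKO, and both CbfbKO libraries lay well below both WT libraries. The WT mean was 11.30 ± 0.0098 log2 CPM (SD, n = 2) and the CbfbKO mean 10.86 ± 0.033 (SD, n = 2), which differ by -0.44 with a standard error of 0.049 (limma, adjusted p = 1.54e-06). Fth1 mRNA in CbfbKO was thus 73.7% of the WT level. In bulk RNA, fewer cells with the mRNA and less of it per cell cannot be told apart. The call of Fth1 depended on the settings of the fit. It was lost without a filter on low values (limma, adjusted p = 0.713) and without a mean-variance trend (limma, adjusted p = 0.302).

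Ftl1 (chromosome 7, 45457944 to 45459884, minus strand) encodes the ferritin light chain, which helps iron to mineralise inside the shell. It had 1559 and 1606 reads in WT and 2354 and 1526 in CbfbKO, or 8.84 and 8.91 log2 CPM in WT and 9.24 and 8.90 in CbfbKO. CbfbKO replicate 1 was above both WT libraries, while CbfbKO replicate 2 lay between them. The difference was 0.19 on the log2 scale (95% confidence interval 0.033 to 0.35, adjusted p = 0.217 from limma). It ranged from 0.025 without CbfbKO replicate 1 to 0.36 without CbfbKO replicate 2, so its size rested on 1 library. Ferritin genes have near-identical processed copies in the genome, between which reads can be split or lost. A search by symbol found 9 other ferritin-like genes, such as Ftl1-ps2, Ftmt and the Fthl17 genes, and together they held 1 read, in Fthl17a. Copies under other symbols were not searched, and reads dropped in counting would not show there. This count therefore does not tell whether ferritin reads were split or lost.

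Ncoa4 (chromosome 14, 32159865 to 32179855, plus strand) encodes the receptor that carries ferritin to lysosomes to free its iron. It had 7 and 3 reads in WT and 5 and 6 in CbfbKO, and the groups overlapped. Its pooled CbfbKO level was 104% of WT with an exact 95% interval for counting error from 40.2% to 274%, so a change of moderate size was not detectable at this depth.

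**Figure D2:**
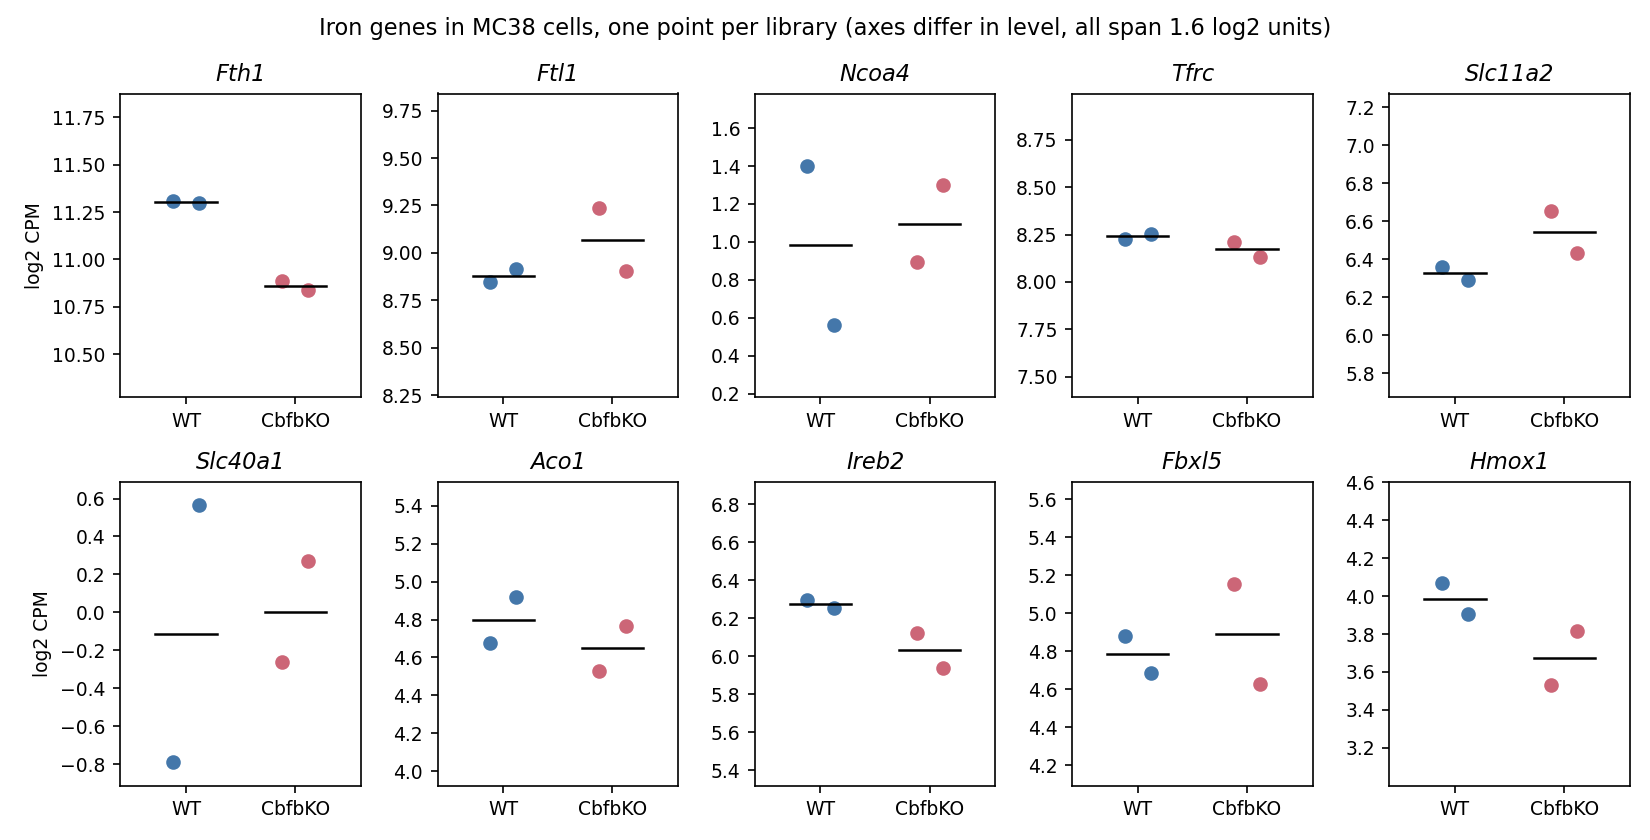
Log2 CPM of the 10 iron genes in each library, 1 panel a gene, with points for libraries and lines for the mean of 2. The vertical axes differ in level but all span 1.6 log2 units. Fth1 shows the widest gap between groups relative to the spread of its libraries (11.30 against 10.86), and Ncoa4 and Slc40a1, on few reads, the widest spread.

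For iron uptake, Tfrc (chromosome 16, 32608920 to 32632794, plus strand), the transferrin receptor, had 1015 and 1017 reads in WT and 1157 and 892 in CbfbKO. Its levels were 8.23 and 8.26 log2 CPM in WT and 8.21 and 8.13 in CbfbKO. Both CbfbKO libraries lay below both WT libraries, but by little. The difference was -0.069 on the log2 scale (95% confidence interval -0.21 to 0.070, adjusted p = 0.705 from limma), the narrowest interval of the 10 genes after that of Fth1. Slc11a2 (chromosome 15, 100387898 to 100425072, minus strand) encodes DMT1, which moves ferrous iron out of endosomes. It had 277 and 259 reads in WT and 392 and 274 in CbfbKO, or 6.36 and 6.29 log2 CPM against 6.66 and 6.43. Both CbfbKO libraries lay above both WT libraries, by a mean of 0.22 (95% confidence interval 0.01 to 0.43, adjusted p = 0.304 from limma). The Slc11a2 gene is known to make mRNAs with different 3′ ends, with and without an IRE, and the gene-level counts do not separate them.

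The export gene was close to unread. Slc40a1 (chromosome 1, 45908068 to 45926523, minus strand) encodes ferroportin, the exporter of iron from cells. It had 0 and 3 reads in WT and 1 and 2 in CbfbKO, that is 3 reads in each group. The pooled CbfbKO level was 94.8% of WT with an exact 95% interval for counting error from 12.7% to 708%, so no difference between the groups could be read at this depth.

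The genes that read iron gave small differences. Aco1 (chromosome 4, 40143081 to 40198338, plus strand) encodes IRP1, which is a cytosolic aconitase while it holds an iron-sulphur cluster and binds IREs when it does not. It had 85 and 99 reads in WT and 88 and 85 in CbfbKO, or 4.68 and 4.92 log2 CPM against 4.53 and 4.77, and the groups overlapped (difference -0.15, 95% confidence interval -0.50 to 0.20, adjusted p = 0.758 from limma). Ireb2 (chromosome 9, 54863789 to 54912530, plus strand) encodes IRP2, which binds IREs and is destroyed when iron is plentiful. Its levels were 6.30 and 6.26 log2 CPM in WT and 6.12 and 5.94 in CbfbKO, on 265, 253, 270 and 194 reads. Both CbfbKO libraries lay below both WT libraries, with a difference of -0.24 (95% confidence interval -0.47 to -0.023, adjusted p = 0.271 from limma). Fbxl5 (chromosome 5, 43744615 to 43821638, minus strand) encodes the iron-sensing ubiquitin ligase subunit that marks IRP2 for destruction. It had 98 and 84 reads in WT and 137 and 77 in CbfbKO, so that 1 CbfbKO library was the highest of the 4 and the other the lowest. In log2 CPM these were 4.88 and 4.69 against 5.16 and 4.63, a difference of 0.11 (95% confidence interval -0.26 to 0.47, adjusted p = 0.847 from limma) that turned to -0.16 without CbfbKO replicate 1.

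Hmox1 (chromosome 8, 75093621 to 75100589, plus strand) encodes heme oxygenase 1, the inducible enzyme that opens heme and frees its iron. It had 55 and 48 reads in WT and 43 and 43 in CbfbKO, or 4.07 and 3.90 log2 CPM against 3.53 and 3.81. Both CbfbKO libraries lay below both WT libraries. The difference was -0.31 on the log2 scale, with a 95% confidence interval from -0.78 to 0.16 and an adjusted p of 0.580 from limma.

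All 10 genes passed the low-value filter, Slc40a1 on a total of 6 reads. Of the 10, 1 was lower and 0 were higher at an adjusted p under 0.05 by limma, against 1.25% of all 12207 genes tested that were lower and 1.57% that were higher. At an unadjusted p under 0.05 there were 4, namely Fth1, Ftl1, Slc11a2 and Ireb2, beside 1820 of the 12207 genes tested, and voom with limma on recovered reads again placed Fth1 alone past the threshold. Both CbfbKO libraries lay below both WT libraries for 4 of the 10 (Fth1, Tfrc, Ireb2 and Hmox1) and above them for 1 (Slc11a2), against 16.8% and 27.4% of all genes tested. The median difference of the 10 was 0.020 on the log2 scale and that of all genes tested 0.039. Because the genes were chosen with this comparison known, nothing is read from these counts. The call of Fth1 did not hold when either CbfbKO library was left out (adjusted p = 0.272 without replicate 1 and 0.283 without replicate 2 from limma), where 0 of the 12207 genes passed and 1104 and 1169 had an unadjusted p under 0.05, while its difference stayed between -0.46 and -0.42 with any library left out.

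**Figure D3:**
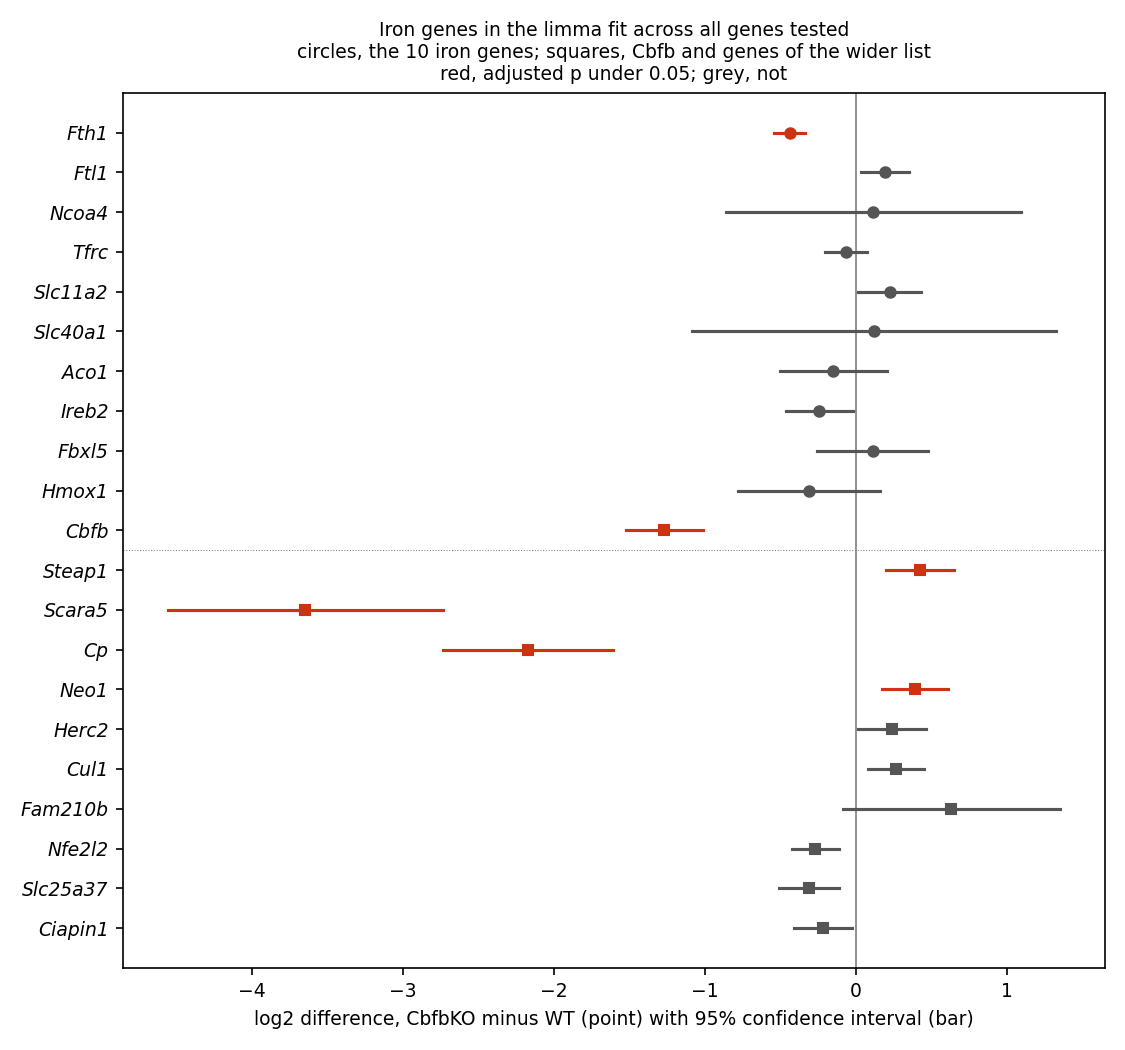
Log2 differences, CbfbKO minus WT, from the limma fit across all genes tested, as points with 95% confidence intervals as bars. Circles are the 10 iron genes, and squares are Cbfb and 10 genes of a wider iron and heme list. Red marks an adjusted p under 0.05, which holds for Fth1 (-0.44) among the 10 and for Cbfb, Scara5, Cp, Steap1 and Neo1, with Scara5 past the low-value filter only through WT.

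A ratio of 2 genes within a library does not depend on how libraries are scaled to each other, and in 3′ libraries the reads of a gene do not grow with its length. The ratio of Fth1 to Ftl1 was 5.52 and 5.22 in the WT libraries and 3.14 and 3.82 in the CbfbKO libraries. All CbfbKO values were below all WT values, and the mean log2 ratio went from 2.42 ± 0.059 (SD, n = 2) to 1.79 ± 0.20 (SD, n = 2), a change of -0.63. The ratio of Tfrc to Fth1 was 0.118 and 0.122 in WT and 0.157 and 0.153 in CbfbKO. Its mean log2 value went from -3.06 ± 0.030 to -2.69 ± 0.025 (SD, n = 2 each), a change of 0.37. The ratio of Aco1 to Ireb2, the genes of the 2 iron regulatory proteins, was 0.326 and 0.396 in WT and 0.332 and 0.443 in CbfbKO, and there the groups overlapped. These ratios were not tested, because Fth1 was chosen with its difference known.

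**Figure D4:**
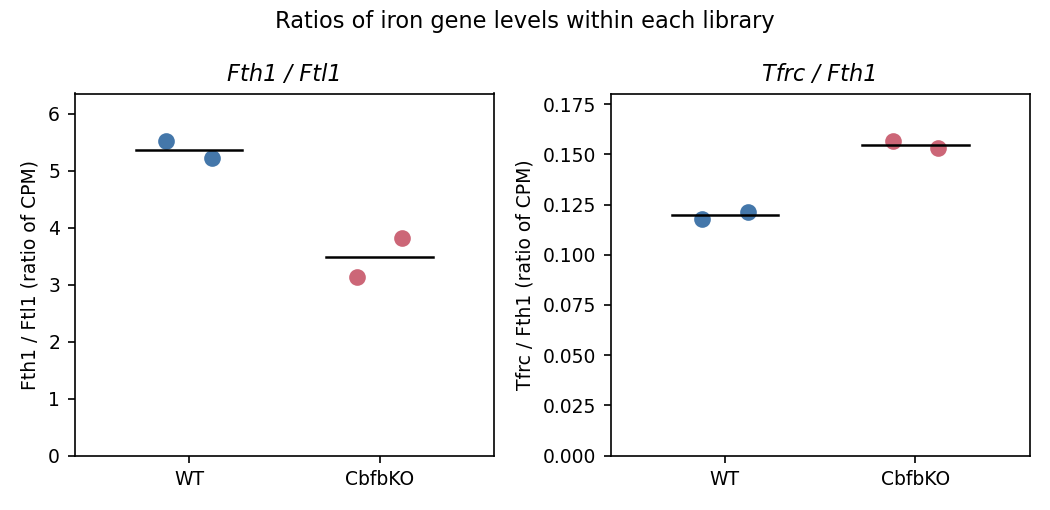
Ratio of CPM within each library for Fth1 over Ftl1 (left) and Tfrc over Fth1 (right), with points for libraries and lines for group means, on axes that start at 0. The CbfbKO libraries lie at 3.14 and 3.82 against 5.52 and 5.22 for WT on the left, and at 0.157 and 0.153 against 0.118 and 0.122 on the right.

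The rest of iron and heme handling was followed in a list of 96 genes named for their function, of which 80 passed the filter. By limma, 2 of the 80 rose (Steap1 and Neo1) and 2 fell (Cp and Scara5), beside 1.57% and 1.25% of all genes tested. Of the latter, Scara5 passed the low-value filter only through its WT libraries, so that its call counts as no support, and Cp passed in both groups. The median difference over the 80 was 0.0035 on the log2 scale. The list was drawn up with earlier results of these data known. At an unadjusted p under 0.05 there were 20 of the 80, beside 1820 of the 12207 genes tested. Both CbfbKO libraries lay above both WT libraries for 23 of the 80 and below them for 19, beside 27.4% and 16.8% of all genes tested. Scaling in voom by a trimmed mean of M values (TMM) put 41.9% of the called genes of the whole table on the higher side, against 56.8% in voom with library totals and 55.7% in the main test.

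Cp showed a large fall. Cp (chromosome 3, 19957054 to 20009145, plus strand) encodes ceruloplasmin, a copper-carrying ferroxidase that oxidises iron as it leaves the cell through ferroportin. It had 64 and 70 reads in WT and 14 and 14 in CbfbKO, with means of 4.36 ± 0.11 and 2.18 ± 0.18 log2 CPM (SD, n = 2 each). These differ by -2.17, with a standard error of 0.27 and, from limma, an adjusted p of 1.10e-05. The pooled reads gave 19.8% of the WT level, with an exact 95% interval for counting error from 12.7% to 29.96%. Scara5 (chromosome 14, 65666403 to 65764826, plus strand), a scavenger receptor that takes up ferritin from outside the cell, had 24 and 31 reads in WT and 1 and 0 in CbfbKO, and its fitted value supports nothing because only the WT libraries brought it past the filter. The pooled CbfbKO level of Scara5 was 1.72% of WT, with an exact 95% interval for counting error from 0.0429% to 10.02%. This too is a description and counts as no support. The difference of Cp stayed between -2.30 and -2.04 with any library left out. Its adjusted p from limma was 0.326 without CbfbKO replicate 1 and 0.286 without CbfbKO replicate 2, in fits where 0 of the 12207 genes passed.

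Steap1 (chromosome 5, 5736317 to 5749326, minus strand) belongs to the STEAP family of membrane reductases. It had 190 and 218 reads in WT and 327 and 251 in CbfbKO and rose by 0.42 in log2 units, with a standard error of 0.11 and an adjusted p of 0.0344 by limma. Neo1 (chromosome 9, 58874687 to 59036441, minus strand) encodes neogenin, a receptor that also binds the hepcidin regulator hemojuvelin. It had 206 and 223 reads in WT and 315 and 277 in CbfbKO and rose by 0.39, again with a standard error of 0.11 (limma, adjusted p = 0.0439). Both rises stood close to the threshold. Of 13 alternative settings, Steap1 passed in 6 and Neo1 in 3, and both calls were lost without WT replicate 1 (adjusted p = 0.294 and 0.262 from limma), and that of Neo1 also without WT replicate 2 (0.0848). Without either CbfbKO library, where 0 genes of the table passed, the differences were 0.38 and 0.46 for Steap1 and 0.44 and 0.34 for Neo1.

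**Figure D5:**
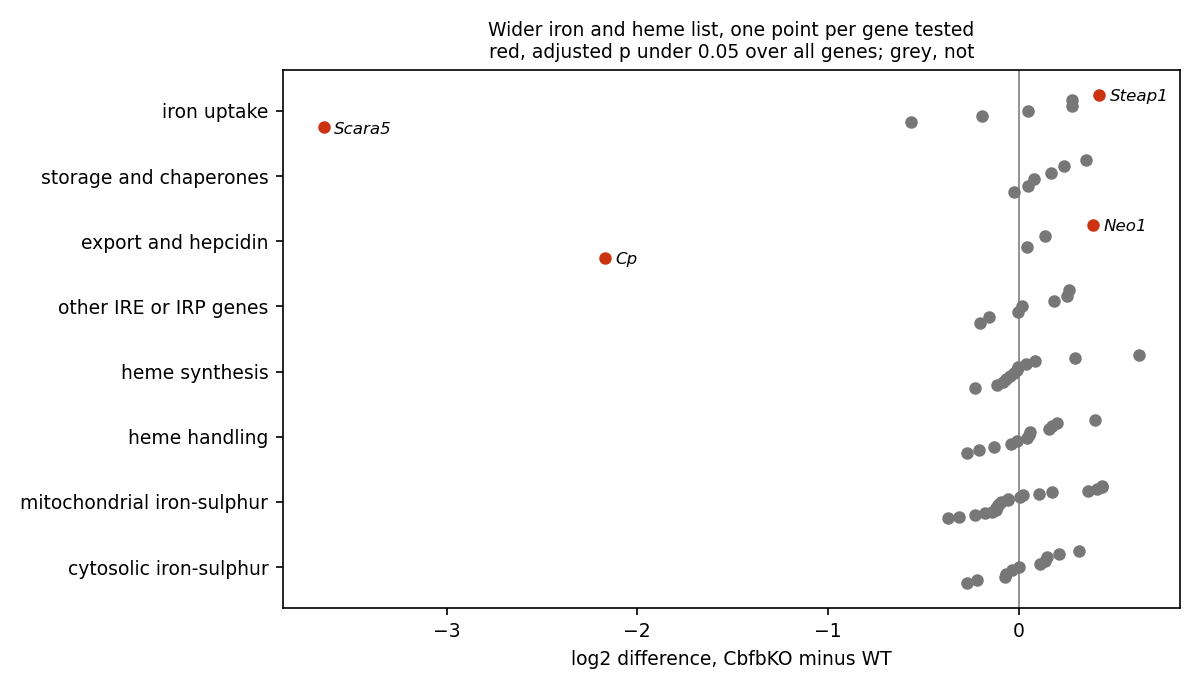
Log2 differences, CbfbKO minus WT, of the 80 tested genes of the wider iron and heme list, 1 point a gene, by function. Red and named are the 4 past the threshold, Scara5 (-3.64 as fitted, on 1 read in CbfbKO, a value that depends on the prior count, and past the filter only through WT) and Cp (-2.17) to the left and Steap1 (0.42) and Neo1 (0.39) to the right.

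In the other groups of the list no gene passed, and their counts at an unadjusted p under 0.05 stand beside the same 1820 of 12207, with no test of the difference. Heme synthesis had 12 of 12 genes tested, with differences from -0.23 to 0.63 (Fam210b, adjusted p = 0.418 from limma) and 0 at an unadjusted p under 0.05. Heme handling had 12 tested genes, of which 2 had an unadjusted p under 0.05. Nfe2l2, which encodes NRF2, an activator of Hmox1 and the ferritin genes, was nearest to the threshold, with 636 and 655 reads in WT and 620 and 508 in CbfbKO, a difference of -0.27 and an adjusted p of 0.0556 from limma. It passed in 6 of 13 alternative settings. Of the genes that supply mitochondria with iron and build iron-sulphur clusters, 21 of 21 were tested and 4 had an unadjusted p under 0.05, with Slc25a37, the mitochondrial iron importer mitoferrin 1, at -0.31 (adjusted p = 0.0887 from limma). The 11 genes of cytosolic iron-sulphur cluster assembly had 2 at an unadjusted p under 0.05, with Ciapin1 at -0.22 (adjusted p = 0.244 from limma). In voom on recovered reads with TMM scaling, 2 genes of these heme and iron-sulphur groups passed, Nfe2l2 and Slc25a37. Among ferritin chaperones and degradation factors, Herc2, a ubiquitin ligase with NCOA4 among its substrates, had the smallest p (difference 0.24, adjusted p = 0.301 from limma), and 2 of 6 tested genes had an unadjusted p under 0.05. Among other genes of the IRE and IRP system, Cul1, the scaffold of the ubiquitin ligase that contains FBXL5, had the smallest p (difference 0.27, adjusted p = 0.132 from limma), and 4 of 7 tested genes had an unadjusted p under 0.05. The hepcidin genes Hamp and Hamp2, the ferroxidase genes Heph and Hephl1 and the transferrin receptor 2 gene Tfr2 had 0 reads in every library.

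Apart from the 10 genes, 25 genes had an IRE match in a 5′ untranslated region, of which 17 were tested and 1 was higher (Hdac7, 0.38 on the log2 scale) and 0 lower by limma. A match in a 3′ untranslated region was found in 126 others, of which 87 were tested, with 3 higher (Pcolce2, Rab6b and Zbtb4) and 1 lower (Cbx7). Over all genes tested, 1.57% were higher and 1.25% lower, and counts this small are not read as differing from those shares. These counts and names were taken after the values were seen.

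RefSeq promoter windows of 300 bases (GRCm38.p6, 250 before to 50 after a gene start) matched by symbol for 6 of the 10 genes, with 10 windows for Fth1, Ftl1, Ncoa4, Tfrc, Aco1 and Ireb2. They were searched on both strands for TGTGGT, the core letters bound by RUNX proteins, and for TGACNNNGC, the core of the antioxidant response element. Of all 32851 windows, 16.8% held the former and 12.4% the latter. Among the iron genes, 1 window of Ncoa4 held both and the windows of Fth1, Ftl1, Tfrc, Aco1 and Ireb2 held neither, which says only that these letters are not in these windows.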

How the data were processed

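Libraries were made with the QuantSeq 3′ mRNA kit from MC38 cells, 2 WT and 2 CbfbKO, grouped by their labels. The authors trimmed reads with cutadapt 1.9, aligned them to mm10 with HISAT2 2.1.0 and counted them per gene with featureCounts 2.0.1, as the submitters' processing notes give these versions (the methods text names another Subread release). They deposited log2 CPM values scaled to library totals. The annotation, the use of strand and the handling of reads that match several genes are not given in the sources used here, and any of them could shift ferritin genes, which have near-identical copies.

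The deposited values imply a prior count of 2 added before the log. Whole reads were recovered from them (at least 99.99% of values above the floor within 0.1 of a whole number) and used for depth, pooled ratios and alternatives. Replicates differed by more than sampling noise (chi-square per degree of freedom 1.58 in WT and 2.15 in CbfbKO over 9520 genes). The labels do not say that replicates were separate cultures, so p-values measure only the spread between these libraries. An exact permutation test of 2 against 2 libraries cannot reach 0.05.

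The groups were compared with limma 3.58.1 in R 4.3.3 on these log2 values (mean-variance trend, two-sided, Benjamini-Hochberg over 12207 genes, threshold 0.05). A gene entered if 2 or more libraries had log2 CPM of 0 or above. The script was tested on simulated data. The study used voom, which needs counts. Confidence intervals are at 95% and unadjusted. Pooled ratios have exact binomial intervals (scipy 1.17.1), which cover counting error only. Positions and untranslated regions come from GENCODE M21, matched by symbol for 10 of 10 genes. Figures used matplotlib 3.10.9.

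Named are the 10 genes, Cbfb, ferritin-like rows and, in each group of the wider list, every gene past the threshold or else the one with the smallest p. Outside this rule, and after their values were seen, 5 genes of the wider list with 0 reads, called genes with an IRE match and some marker genes were also named. The members and lists were chosen with earlier results of these data known. Transferrin, planned only under the symbol Tf, is not analysed here. Alternatives were no filter, a minimum of 5 CPM, median centring, quantile normalization, ribosomal RNA genes left out of totals, no trend, voom on recovered reads with library totals or TMM scaling (30% and 5% trimmed), the replicate block, each library left out and a threshold of 0.01.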

Additional observations from a re-analysis of the deposited data

How the results depend on the processing

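Fth1 was lower in CbfbKO in all 13 alternative fits, from -0.48 to -0.42 on the log2 scale, and its call held in 9. The call was lost without a filter (difference -0.44, adjusted p = 0.713 from limma), without the mean-variance trend (difference -0.44, adjusted p = 0.302) and without either CbfbKO library (adjusted p = 0.272 and 0.283); leaving out each library in turn gave -0.46 to -0.42. The other 9 iron genes passed in none of these fits. In those that lost Fth1, few genes of the whole table passed: 2 higher and 53 lower without a filter and 0 without the trend, where 1461 had an unadjusted p under 0.05. Iron genes called lower numbered 0 in these fits and 1 in the others, and leaving out libraries gave 0 to 1. For the wider list, genes called higher went from 2 to 1 with median centring and in voom with TMM scaling, and to 0 with quantile normalization, ribosomal RNA genes left out, no filter, no trend or a threshold of 0.01, and were 0 to 1 with a library left out. Genes called lower went from 2 to 3 with a minimum of 5 CPM, median centring or ribosomal RNA genes left out. They were also 3 in voom with library totals and with the replicate block. In voom with TMM scaling they were 4, and without a filter or trend 0. Of the 10 iron genes and the 10 named genes of the wider list, 3 turned direction, each with a library left out: Ncoa4 ranged from -0.30 to 0.53, Slc40a1 from -0.56 to 0.79 and Fbxl5 from -0.16 to 0.37. Over the whole table, 192 genes were higher and 153 lower; a minimum of 5 CPM gave 300 and 209, quantile normalization 39 and 44, and voom with TMM scaling 173 and 240. The cause of these changes was not tested. With a library left out, the lone library of its group is assumed to vary like the pair in the other.

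The replicate block, with the replicate number of the labels as a term, gave 320 higher and 215 lower genes over the whole table, 1 iron gene lower (Fth1, adjusted p = 3.63e-10 from limma) and 5 genes of the wider list, with Nfe2l2 (adjusted p = 0.0379) beside the 4 named. Counts of lower genes of the wider list include Scara5, which passed the filter only through WT. Over all genes tested, the deviations of same-numbered libraries from their group means had a correlation of -0.0042. Genes with few reads weigh as much there as others, so a shift shared by abundant genes could be missed. The labels give no more than the shared number. Depth limits Slc40a1, Ncoa4, Scara5 in CbfbKO and, less so, Hmox1 and Cp. The prior count of 2 in the deposited values was not varied on its own. The voom fits on recovered reads use another offset, and with library totals Scara5 was at -5.07 and Slc40a1 at 0.45, against -3.64 and 0.12.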
